A study of Mus musculus with 8 samples.

Results

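The 6 genes described here encode the pore-forming subunits of the T-type calcium channels (Cacna1g, Cacna1h and Cacna1i) and 3 of the hyperpolarization-activated, cyclic nucleotide-gated (HCN) pacemaker channels (Hcn2, Hcn3 and Hcn4). They were chosen by symbol from the 18939 genes of the deposited count table, with 1 row per gene, and all 6 were found. RNA came from mu opioid receptor (MOR) neurons of the paraventricular nucleus of the thalamus (PVT), captured by translating ribosome affinity purification (TRAP), in which a tagged ribosomal protein is pulled down with the RNA bound to it. All mice carried OPRM1cre and the Cre-dependent EGFP-L10a ribosomal protein on a C57Bl/6J background and were 8 to 12 weeks old at the start. The morphine group drank morphine, raised to 0.5 mg/ml, in 0.2% saccharin for 11 days (4 libraries), and the control group drank 0.2% saccharin alone (4 libraries). By the study's description each library pooled PVT dissections of 2 mice of the same sex, which the Y-linked counts of control replicate 5 given below put in doubt for that library, and by the labels either group has 2 male and 2 female libraries. Cre follows the Oprm1 gene, so any MOR neuron inside a gross dissection is tagged, whether or not it lies in the PVT. Libraries of unpurified tissue were not analysed here, so values describe captured RNA and not enrichment.

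T-type channels open at voltages close to rest and inactivate quickly, and only a period of hyperpolarization makes them available again. In thalamic relay neurons they carry the low-threshold calcium spike on which a burst of action potentials rides, the firing mode typical of sleep and drowsiness. HCN channels open upon hyperpolarization and pass a depolarizing mixed cation current that sets the resting potential and, together with the T-type current, paces rhythmic bursting. Cyclic AMP eases the opening of Hcn2 and Hcn4 channels strongly and of Hcn3 channels hardly at all. When acutely activated, MOR signals through inhibitory G proteins that lower cyclic AMP. These libraries do not measure cyclic AMP, so its level after 11 days of morphine is not known here. The question for these genes is whether the libraries of mice on chronic morphine differ from those of controls in the RNA of either family.

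Members of each family are similar enough that reads could in principle be shared, so the transcripts were compared first. The stretch around the selectivity filter is shown because it is a highly conserved part of the pore. In each line the capitals are the 3 codons for glycine, tyrosine and glycine, the cation filter, and the 57 bases lie in exon 4 of each transcript (GENCODE M21 transcripts on GRCm38, written along the coding strand):
Hcn2 (chr10:79728932-79728988, plus strand): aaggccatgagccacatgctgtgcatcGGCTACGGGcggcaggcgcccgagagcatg
Hcn3 (chr3:89150985-89151041, minus strand): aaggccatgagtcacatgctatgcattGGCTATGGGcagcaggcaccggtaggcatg
Hcn4 (chr9:58855564-58855620, plus strand): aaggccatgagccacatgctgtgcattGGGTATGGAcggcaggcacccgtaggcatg

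Across these 57 bases, Hcn3 and Hcn4 were identical at 51 positions (89.5%), the closest pair, Hcn2 and Hcn4 at 49 (86.0%) and Hcn2 and Hcn3 at 47 (82.5%). Each of these genes spells the filter with its own set of codons. No run of 50 bases, the read length, was shared by any pair of these HCN transcripts, and the longest stretch common to any 2 of them was 33 bases, in Hcn2 and Hcn3. The T-type genes share longer stretches. The longest, 68 bases in exon 11 of Cacna1g (chr11:94443187-94443254, minus strand) and exon 12 of Cacna1i (chr15:80369688-80369755, plus strand), is shown because single reads from it cannot be assigned to 1 gene:
Cacna1g and Cacna1i: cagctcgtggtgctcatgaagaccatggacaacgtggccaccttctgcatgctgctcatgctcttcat
A second stretch of 50 bases is common to exon 25 of Cacna1h (chr17:25383183-25383232, minus strand) and exon 25 of Cacna1i (chr15:80378189-80378238, plus strand):
Cacna1h and Cacna1i: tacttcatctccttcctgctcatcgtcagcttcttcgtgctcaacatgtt
These places make up 19 of the 8076 possible 50-base reads of Cacna1g, 20 of 9732 of Cacna1i and 1 of 8171 of Cacna1h, so the genes of each family are told apart nearly everywhere. The table lists 4 transcripts of Cacna1g, the lowest total being 99.96% of the highest, and 2 of Cacna1h with equal totals, so it does not resolve splice forms of either channel.

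By RefSeq on GRCm38.p6, Cacna1g lies at chr11:94408391-94474400, Cacna1h at chr17:25374285-25436334, Cacna1i at chr15:80287238-80398292, Hcn2 at chr10:79716634-79736108, Hcn3 at chr3:89146775-89160284 and Hcn4 at chr9:58822949-58863175. No annotated gene overlaps Hcn2 or Hcn4. The ends of Hcn3 and Cacna1h overlap Pklr by 41 bases and Tpsg1 by 158 bases, and long noncoding RNA genes lie within or at the edge of Cacna1g, Cacna1h and Cacna1i. Whether counting respected the strand is not given, so reads from these places are uncertain.

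Total counts ranged from 37081348 to 43311793 in control libraries and from 31151103 to 47582947 in morphine libraries. Control replicate 5 is labelled female but held the Y-linked genes Ddx3y, Eif2s3y, Kdm5d and Uty at 28.7% to 35.8% of their mean CPM (counts scaled to library size, with TMM factors) in libraries labelled male. The other female-labelled libraries held at most 2 counts of each. Among 9 lists of cell type markers, 0 of 70 genes were called by edgeR (0.195% of all genes were), 19 had an unadjusted P under 0.05 (12.1% of all genes had), 10 were called by DESeq2 (2.63% of all genes were) and 1 by limma-voom (0.121% of all genes were). A gene is called when its adjusted P value over all genes is under 0.05. The thalamic glutamatergic markers (8 of 8 in the table, Gbx2 and Tcf7l2 among them) summed to 2283 to 2889 CPM in control and 1712 to 3003 CPM in morphine libraries, with 8 of 8 log2 fold changes below 0 (median -0.24) and 1 at an unadjusted edgeR P under 0.05. GABAergic and reticular markers (10 of 10 present) summed to 1318 to 1737 CPM in control and 990.3 to 1633 CPM in morphine libraries. Most of this came from Gad1 and Gad2, with control means of 506 and 624 CPM, beside 19.6 CPM for Six3. Of their log2 fold changes 5 were above 0 and 5 below, with 2 at an unadjusted edgeR P under 0.05, both lower with morphine. Medial habenula markers (7 of 8 in the table) summed to 90.3 to 137 CPM over both groups and astrocyte markers to 169 to 330 CPM. Oligodendrocyte markers summed to 116 to 1176 CPM in control and 537 to 1437 CPM in morphine libraries, with 6 of 6 log2 fold changes above 0 (median 0.56) and 0 at an unadjusted edgeR P under 0.05. Microglia and endothelial markers summed to at most 6.64 CPM. The telencephalic and choroid plexus lists are given with Cacna1h.

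Per length of transcript, Hcn2 was the most abundant of the 6 genes and Cacna1g came next. As the mean over all 8 libraries, Hcn2 stood at 50.5 ± 13.3 CPM per kb (SD, n = 8), above 92.0% of all genes with a known length. Cacna1g, the main T-type gene of thalamic relay neurons, stood at 15.1 ± 1.99 CPM per kb, above 74.3% of genes. Cacna1i, the T-type gene best known from the reticular thalamic nucleus, followed at 6.04 ± 1.51 CPM per kb. Hcn4, the slowest of the HCN channels and one that relay neurons are known to express, stood at 3.88 ± 0.46 CPM per kb. Hcn3 stood at 3.66 ± 0.81 and Cacna1h at 2.53 ± 1.12 CPM per kb. The ranges of Hcn2 and Cacna1g did not meet, nor did those of Cacna1g and Cacna1i. Below them the order was not firm, since Cacna1i was above Hcn4 in 7 of 8 libraries, Hcn4 above Hcn3 in 5 of 8 and Hcn3 above Cacna1h in 6 of 8.

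**Figure D1:**
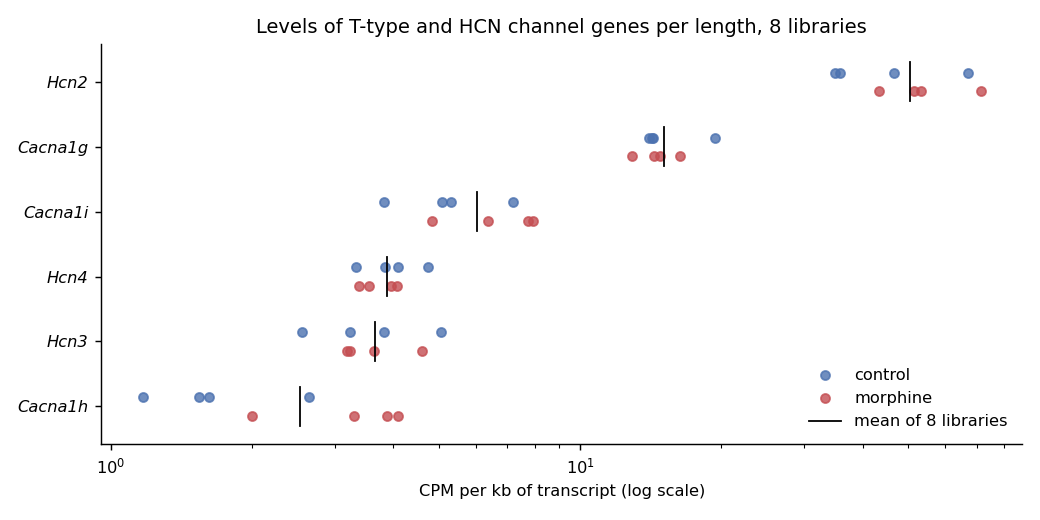
Level of each T-type and HCN channel gene as CPM per kb of transcript (x axis, log scale), with 1 point per library, control in blue and morphine in red, and a black line at the mean of the 8 libraries. Hcn2 and Cacna1g lie clear of the other genes, whose ranges overlap with those of their neighbours.

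Among the 3 HCN genes, Hcn2 made up 85.3% ± 2.39 of the summed level per kb in control libraries and 87.9% ± 1.27 in morphine libraries (SD, n = 4 each). Within the T-type family, Cacna1g made up 68.9% ± 3.48 in control and 59.7% ± 5.60 in morphine libraries. The share of Cacna1i was 23.5% ± 2.44 and 27.1% ± 2.97. That of Cacna1h was 7.56% ± 1.21 in control libraries, none above 9.05%, and 13.3% ± 2.64 in morphine libraries, none below 9.42%. This gap is narrow and was not tested, and it rests on much the same counts as the ratio of Cacna1h to Cacna1g given below. Hcn2 held at least 83.2% of the HCN sum and Cacna1g at least 55.2% of the T-type sum in every library.

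In the comparison of morphine with control libraries, 0 of the 6 genes were called by edgeR's quasi-likelihood test, against 37 of 18939 genes (0.195%) over the whole table. At an unadjusted P under 0.05 the count was 1 of 6, Cacna1h, and 12.1% of all genes were below that mark. DESeq2 called 1 of 6, again Cacna1h, where it called 2.63% of all genes, and limma-voom called 0. In 0 of the 6 genes did the 2 groups lie apart without overlap, as 6.54% of all genes did. The median log2 fold change of the 6 genes was 0.13, beside 0.01 over all genes. Libraries of pooled dissections cannot tell apart a difference in cell numbers, in RNA per cell or in RNA carried over from untagged cells.

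**Figure D2:**
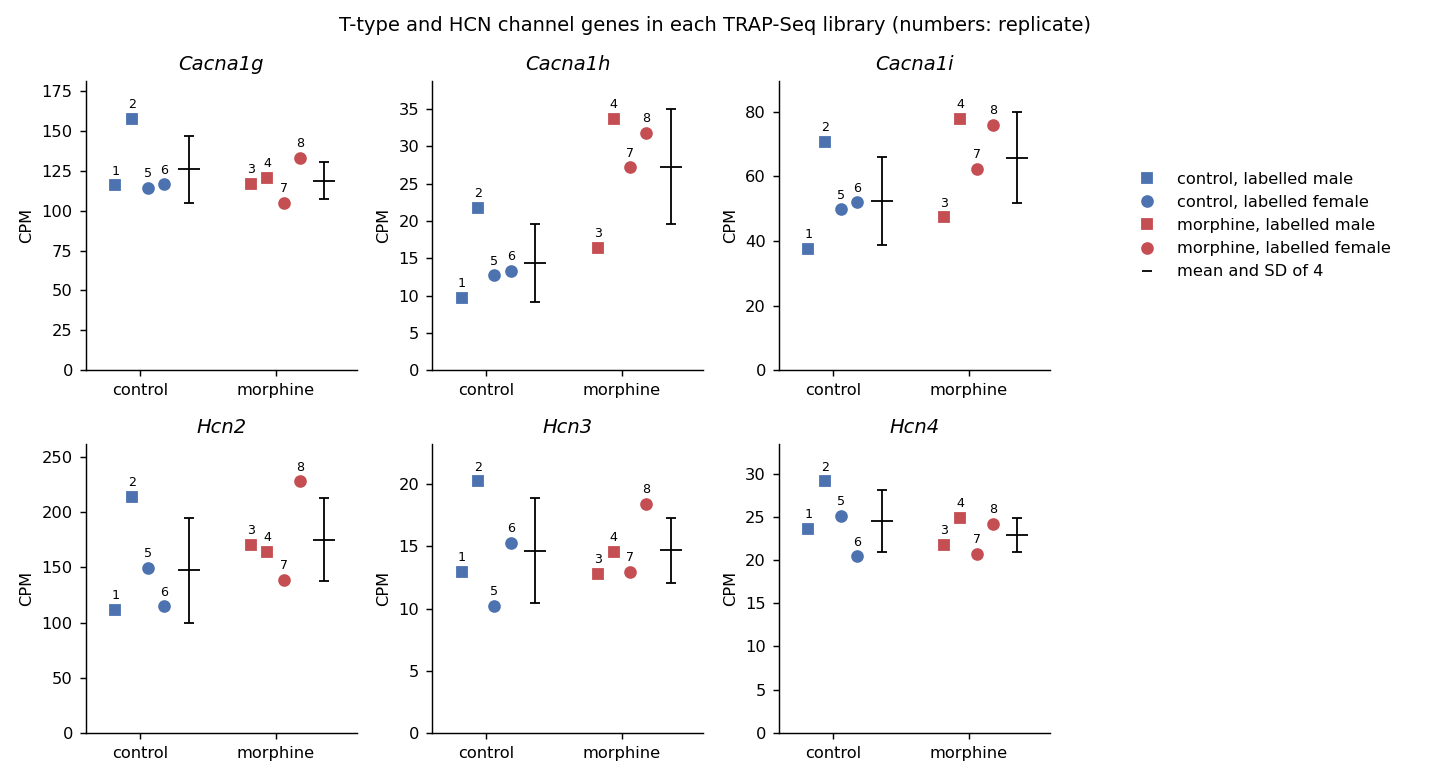
CPM of the 6 channel genes in each library (y axis from 0), with squares for libraries labelled male, circles for those labelled female, numbers for replicates, and a bar for the mean and SD of 4. Of the 4 morphine libraries of Cacna1h, 3 lie above all control libraries, and control replicate 2 is the highest control library of every gene.

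Cacna1h, a T-type channel well known from sensory neurons, had the largest difference of the 6 genes. Its CPM was 9.64, 21.8, 12.7 and 13.3 in control replicates 1, 2, 5 and 6. In morphine replicates 3, 4, 7 and 8 it was 16.4, 33.7, 27.2 and 31.8. Of the 4 morphine libraries, 3 were above all control libraries, while morphine replicate 3 was below control replicate 2. Means were 14.4 ± 5.20 CPM in control and 27.3 ± 7.73 CPM in morphine libraries (SD, n = 4 each). The log2 fold change was 0.93 (SE 0.26, 95% interval 0.36 to 1.49, edgeR unadjusted P = 0.0044, adjusted P = 0.185), so the interval lies above 0 but the difference does not pass once all genes are counted. With DESeq2 the log2 fold change was 0.93 with an adjusted P = 0.0251. Leaving out any 1 library gave log2 fold changes from 0.76 to 1.20, with edgeR adjusted P values from 0.0580 to 0.456. The lowest of these adjusted P values came without control replicate 2.

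Telencephalic pyramidal neuron and choroid plexus markers were the lists with the most members at an unadjusted P under 0.05. Of 12 telencephalic pyramidal neuron markers, 8 had an unadjusted edgeR P under 0.05, 6 of them higher with morphine, with a median log2 fold change of 0.94 over the list. Their mean log2 CPM was 3.42, 3.55, 3.53 and 5.08 in control replicates 1, 2, 5 and 6 and 4.61, 5.66, 5.43 and 5.41 in morphine replicates 3, 4, 7 and 8. Summed, they reached 533 to 815 CPM in control and 666 to 1195 CPM in morphine libraries. Neurod6, a transcription factor of pyramidal neurons with the largest fold change of the list, was at 5.13 ± 5.78 CPM in control and 50.8 ± 16.5 CPM in morphine libraries. DESeq2 called 5 of the 12. Neurod6 (DESeq2 adjusted P = 0.00122), Neurod2 (0.0389), Slc17a7 (0.00505) and Bcl11b (0.0197) were higher with morphine, and Cux2 (0.0470) was lower. Every morphine library was above every control library for Neurod6 and Neurod2 and below for Cux2, whose log2 fold change was -0.32. The groups did not overlap in 9 of all 70 markers (12.9%), beside 6.54% of all genes. By edgeR 0 of the 12 were called, with adjusted P values of 0.0569 for Neurod6 and 0.188 for Cux2. Of 10 choroid plexus markers, 8 had an unadjusted edgeR P under 0.05, all higher with morphine. In 6 of the 10 every morphine library was above every control library, and the median log2 fold change over the list was 1.69. The summed level of the list was 43.1 to 159 CPM in control and 214 to 670 CPM in morphine libraries. Ttr, the transthyretin of choroid plexus epithelium, was at 17.0 ± 19.0 CPM in control and 174 ± 106 CPM in morphine libraries. Once the telencephalic marker score was added as a covariate, Cacna1h had a log2 fold change of 0.61 (SE 0.42), and with the choroid plexus score 0.34 (SE 0.38), the edgeR adjusted P values being 0.805 and 1. The choroid plexus score was at most 2.60 in control and at least 2.71 in morphine libraries, so it and condition can hardly be told apart in that fit, which called 0 genes of the whole table (603 at an unadjusted P under 0.05). The part of these cell types in the difference of Cacna1h was not tested further.

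**Figure D3:**
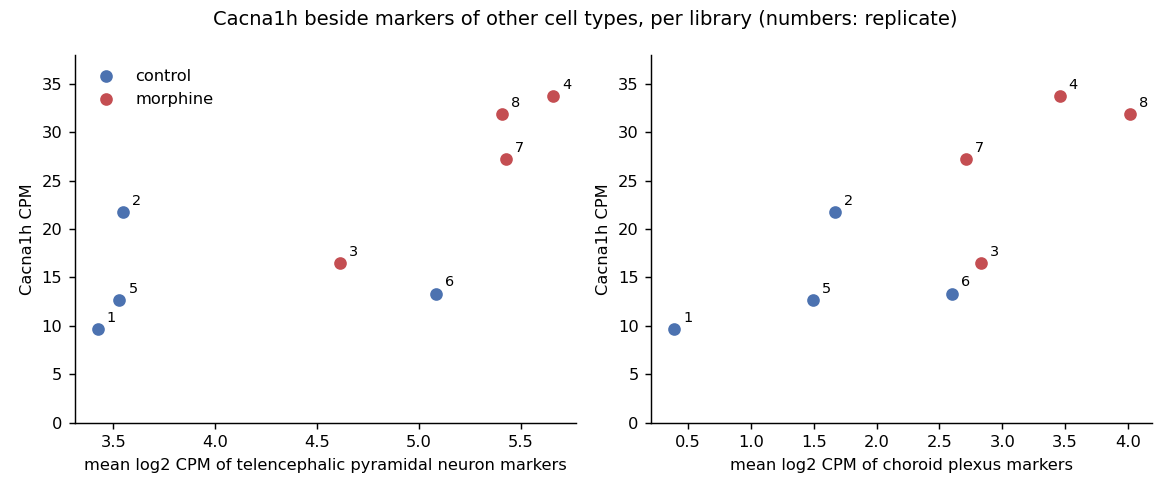
CPM of Cacna1h (y axis) against the mean log2 CPM of telencephalic pyramidal neuron markers (left) and of choroid plexus markers (right), with 1 point per library labelled by replicate, control in blue and morphine in red. Morphine replicates 4, 7 and 8 are highest in Cacna1h and on the telencephalic axis, where control replicate 6 reaches 5.08 at 13.3 CPM of Cacna1h, and on the choroid plexus axis morphine replicate 7 (2.71) lies between control replicate 6 (2.60) and morphine replicate 3 (2.83).

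Cacna1g had 116, 158, 114 and 116 CPM in control replicates 1, 2, 5 and 6 and 117, 120, 105 and 133 CPM in morphine replicates 3, 4, 7 and 8. Apart from control replicate 2, every library lay between 105 and 133 CPM. The log2 fold change was -0.08 (SE 0.12, 95% interval -0.35 to 0.19, edgeR adjusted P = 0.817). Without control replicate 2 it was 0.04, and without that library and morphine replicate 8 it was -0.02, so its sign is not firm.

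Cacna1i, whose current inactivates more slowly than that of the other T-type channels, had 37.4, 70.6, 49.7 and 51.9 CPM in control libraries and 47.3, 77.8, 62.2 and 75.9 CPM in morphine libraries, in the same order of replicates. The groups overlapped, with 2 morphine libraries above all control libraries. The log2 fold change was 0.33 (SE 0.20, 95% interval -0.10 to 0.76, edgeR adjusted P = 0.550). Without control replicate 2 it was 0.51, with an unadjusted edgeR P of 0.016 and an adjusted P of 0.163, and without control replicate 1 it was 0.18 (adjusted P = 0.810). It was 0.06 with the telencephalic score as a covariate and turned to -0.19 with the choroid plexus score.

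Hcn2 had 112, 214, 149 and 115 CPM in control libraries and 170, 164, 139 and 228 CPM in morphine libraries. Control replicate 2 and morphine replicate 8 were the highest of their groups, and both groups overlapped. Hcn2 had a log2 fold change of 0.25 (SE 0.21, 95% interval -0.21 to 0.71, edgeR adjusted P = 0.677). Without control replicate 2 it was 0.49 (unadjusted P = 0.014 and adjusted P = 0.157 by edgeR), and without that library and morphine replicate 8 it was 0.33 (adjusted P = 0.312), whereas removing morphine replicate 8, control replicate 1 or control replicate 6 alone lowered it to 0.10, 0.12 and 0.13. The marker scores moved it apart, to 0.54 (SE 0.34) with the telencephalic and -0.12 (SE 0.33) with the choroid plexus score.

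Hcn3 had 12.9, 20.2, 10.2 and 15.3 CPM in control libraries and 12.8, 14.5, 13.0 and 18.4 CPM in morphine libraries. Both group means were 14.7 CPM, and the log2 fold change was 0.00157 (SE 0.20, 95% interval -0.44 to 0.44, edgeR adjusted P = 0.998). Its sign turned under several alternatives. Hcn4 had 23.6, 29.1, 25.1 and 20.4 CPM in control libraries and 21.8, 24.9, 20.7 and 24.2 CPM in morphine libraries. All morphine libraries lay within the range of the control libraries, and the log2 fold change was -0.10 (SE 0.12, 95% interval -0.37 to 0.17, edgeR adjusted P = 0.769). Leaving out single libraries gave -0.20 (without control replicate 6) to -0.0084 (without control replicate 2).

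**Figure D4:**
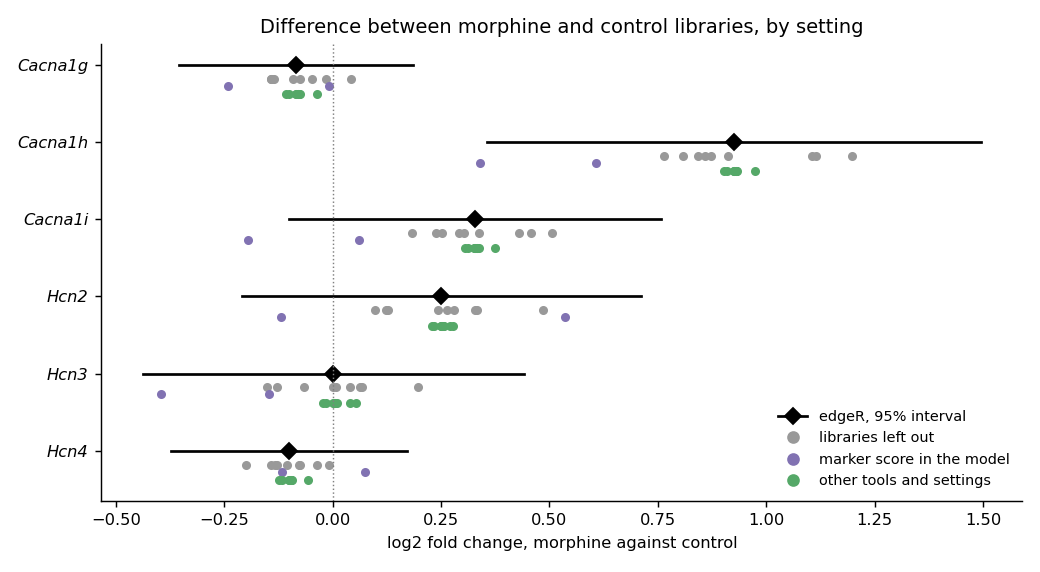
Log2 fold change of morphine against control (x axis) for the 6 channel genes, with the edgeR estimate as a diamond, its 95% interval as a line, and the same value with libraries left out (grey), with a marker score in the model (purple) or with other tools and settings (green). The interval of Cacna1h alone lies above 0, and its values fall to 0.61 and 0.34 with a marker score in the model.

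Ratios of 2 genes within a library do not depend on how libraries are scaled, and 4 of them were compared (exact two-sided permutation test over the 70 arrangements of 8 libraries, smallest possible P = 0.0286, Benjamini-Hochberg over the 4 ratios). The log2 ratio of Cacna1h to Cacna1g counts was -3.59, -2.86, -3.17 and -3.13 in control replicates 1, 2, 5 and 6. It was -2.83, -1.84, -1.95 and -2.06 in morphine replicates 3, 4, 7 and 8. Every morphine library was above every control library, although morphine replicate 3 exceeded control replicate 2 only narrowly. The difference was 1.01 (exact permutation P = 0.0286, adjusted P = 0.114), the smallest P this design allows. The ratio of Cacna1i to Cacna1g was -1.29 ± 0.23 in control and -0.88 ± 0.30 in morphine libraries (SD, n = 4 each, exact permutation P = 0.114, adjusted P = 0.152). That of Hcn4 to Hcn2, the 2 HCN genes of relay neurons most open to cyclic AMP, was -2.55 ± 0.26 in control and -2.92 ± 0.24 in morphine libraries, a difference of -0.37 (exact permutation P = 0.0857, adjusted P = 0.152). That of Hcn3 to Hcn2 differed by -0.25 (exact permutation P = 0.314, adjusted P = 0.314), and by -0.11 without control replicate 6 or -0.43 without control replicate 5. With 4 libraries a group, no ratio could pass the adjustment unless at least 3 of the 4 were at the smallest P, so the adjusted values say little about any single ratio.

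**Figure D5:**
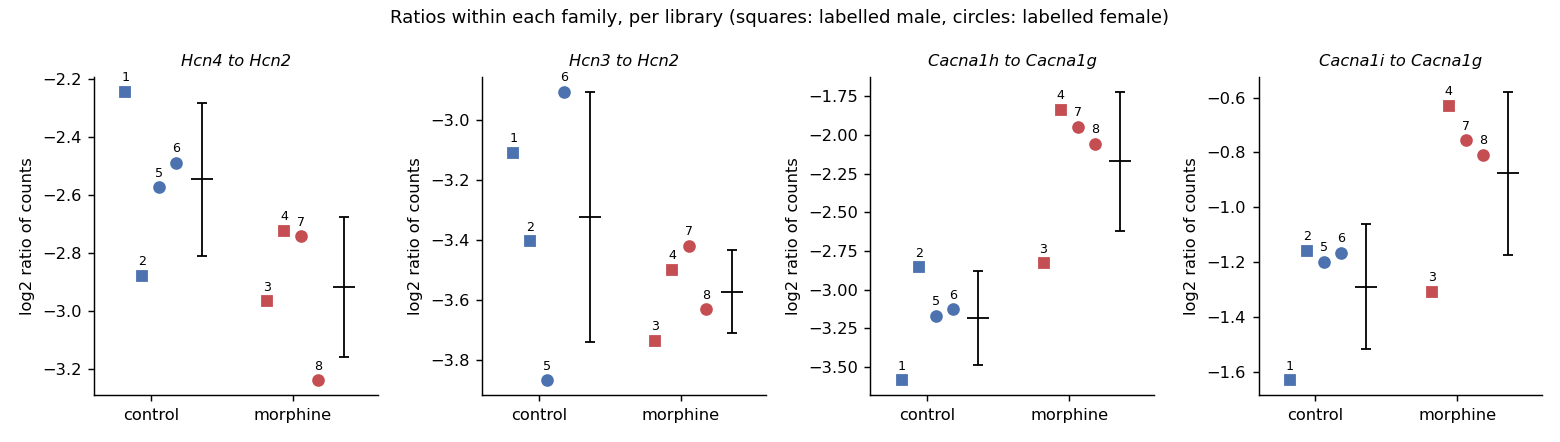
Log2 ratio of counts of 2 genes of the same family in each library (y axis), control in blue and morphine in red, with replicate numbers and a bar for the mean and SD of 4. In the ratio of Cacna1h to Cacna1g all 4 morphine libraries lie above all control libraries, and in the other 3 ratios the groups overlap.

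Control replicate 2 was the highest control library for 6 of 6 channel genes, and morphine replicate 8 the highest morphine library for 3 of 6. Among 14508 genes with a mean of at least 10 counts, the shares were 32.3% and 26.9%. Both held together for 3 of 6 channel genes, for 15.0% of these genes and for 24.2% of those with at least 58% GC. The channel transcripts are rich in G and C, from 58.0% (Cacna1g) to 65.4% (Hcn2), a GC content higher than that of 88.0% to 99.5% of these genes. Over the 1747 genes of at least 58% GC, the median deviation of log2 CPM from the mean of the 8 libraries was 0.15 in control replicate 2, the highest, and -0.15 in morphine replicate 3, the lowest. The deviation of Hcn2 in control replicate 2 was 0.45 and that of Cacna1g 0.37, larger than the median of GC-rich genes. With an offset for GC content in each library, the log2 fold change was 0.98 for Cacna1h (edgeR adjusted P = 0.110), 0.38 for Cacna1i (0.368), 0.27 for Hcn2 (0.566) and -0.04 for Cacna1g (0.911), and 0 of 6 genes were called.

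Between libraries labelled female and male, with condition as a covariate, edgeR and DESeq2 each called 0 of the 6 genes, and 0 had an unadjusted P under 0.05. Over all genes edgeR called 1 (0.00528%) and DESeq2 26 (0.137%), and 587 (3.1%) had an unadjusted edgeR P under 0.05. The log2 fold change of female against male libraries ran from -0.13 (Hcn4, SE 0.13) to 0.03 (Cacna1i, SE 0.20), with edgeR adjusted P values of 1.00. Without control replicate 5, whose Y-linked counts go against its label, it ran from -0.19 (Hcn4) to 0.06 (Hcn3), and again 0 of 6 were called. The interaction of sex and morphine was called by edgeR or DESeq2 in 0 of the 6 genes, and 0 had an unadjusted P under 0.05. Over all genes the interaction test called 0%, with 325 genes (1.72%) at an unadjusted P under 0.05 and 4 (0.0211%) called by DESeq2. Intervals of the interaction were wide, from -0.61 to 1.63 for Cacna1h. Its female-labelled morphine libraries (27.2 and 31.8 CPM) lay above both female-labelled control libraries (12.7 and 13.3 CPM), while the male libraries overlapped. The same held for Cacna1i (62.2 and 75.9 CPM against 49.7 and 51.9 CPM). With 2 libraries a side such a separation easily arises by chance, and its share over all genes was not counted. Control replicate 5 was among the female-labelled control libraries. Without control replicate 5 the interaction of Cacna1h was 0.47 (SE 0.59).

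The rest of the machinery of burst firing was followed in 36 genes of 5 lists. By edgeR 0 of 36 were called, and 9 (25.0%, beside 12.1% of all genes) had an unadjusted P under 0.05, 7 of them higher with morphine. DESeq2 called 3 of 36 (beside 2.63% of all genes), namely Trpc4, Cacna1e and Kcnip2, with adjusted P values of 0.0208, 0.0384 and 0.0389, and limma-voom called 0. In 3 of 36 (8.33%, beside 6.54% of all genes) the groups did not overlap. All 36 genes were in the table. Cacna1e belongs to both the burst-ending and the high-voltage-activated calcium channel lists given below, so the list sizes add up to more than 36.

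Of the 8 channels that end a burst or follow it, 7 had a log2 fold change above 0 (median 0.37) and 3 had an unadjusted edgeR P under 0.05. Trpc4, a cation channel linked to plateau potentials, was at 6.43 to 12.1 CPM in control and 12.4 to 20.7 CPM in morphine libraries, with no overlap. Its log2 fold change was 0.82 (SE 0.22, edgeR adjusted P = 0.161). Kcnn2, a small-conductance potassium channel that T-type calcium entry can open, was at 8.28 to 14.1 CPM in control and 14.2 to 21.9 CPM in morphine libraries, again without overlap. Its log2 fold change was 0.59 (SE 0.18, edgeR adjusted P = 0.217). Cacna1e, the R-type calcium channel, was at 91.4 ± 14.4 CPM in control and 151 ± 47.5 CPM in morphine libraries (log2 fold change 0.73, edgeR adjusted P = 0.188), and the groups overlapped.

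Among 8 genes of A-type potassium channels, whose outward current opposes the low-threshold spike, 5 had a log2 fold change above 0 and the median was 0.08. Kcnip2, a calcium-binding subunit of these channels, was uneven among morphine libraries, at 30.4, 91.2, 79.8 and 40.5 CPM in morphine replicates 3, 4, 7 and 8 beside 23.8 to 36.5 CPM in control libraries. Its log2 fold change was 1.00 (edgeR adjusted P = 0.222). Dpp6, a partner that speeds A-type gating, was at 185 ± 34.3 CPM in control and 248 ± 54.8 CPM in morphine libraries (log2 fold change 0.43, edgeR adjusted P = 0.324). Among the 7 high-voltage-activated calcium channel genes, 6 had a log2 fold change above 0 (median 0.19). Cacna1a, the P/Q-type channel of nerve terminals, was at 79.2 ± 13.1 CPM in control and 111 ± 21.7 CPM in morphine libraries (log2 fold change 0.48, edgeR adjusted P = 0.241).

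The 9 leak conductance genes were split, with 5 above 0 and 4 below (median log2 fold change 0.15). Kcnk2, a background potassium channel, had a log2 fold change of 0.42 (edgeR adjusted P = 0.265). Of the sodium leak channel and its partners, Nalcn (0.21) and Unc79 (0.15) had log2 fold changes above 0, and Unc80 and Fam155a below 0. Unc80 was at 997 ± 146 CPM in control and 803 ± 92.2 CPM in morphine libraries (log2 fold change -0.31, edgeR adjusted P = 0.369). Fam155a was at 193 to 206 CPM in control and 176 to 186 CPM in morphine libraries, which did not overlap, with a log2 fold change of -0.11 (edgeR adjusted P = 0.620). Of the 5 regulators of T-type and HCN channels, Usp5, a deubiquitinase that protects the Cacna1h channel protein from breakdown, had the lowest P value. It was at 268 ± 24.0 CPM in control and 217 ± 18.8 CPM in morphine libraries (log2 fold change -0.30, SE 0.10, edgeR adjusted P = 0.261), opposite in sign to Cacna1h. Pex5l, which binds HCN channels and controls their traffic, was at 185 ± 33.1 CPM in control and 211 ± 28.0 CPM in morphine libraries, a log2 fold change of 0.19 (SE 0.14).

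Over the 8 libraries, the pattern of Cacna1h was closest to those of Arsb (Pearson's r of log2 CPM 0.99), Lingo3 (0.99) and Atp2b2 (0.98), among the 14557 genes that passed edgeR's filterByExpr. Cacna1g was closest to Podxl2 (0.99), Fam73b (0.98) and Gpr137 (0.97), and Cacna1i to Vrk3, Syvn1 and Cdh13 (0.98 each). Hcn2 was closest to Atp8a2 (0.99), Hs6st1 (0.99) and Ppt1 (0.98), Hcn3 to Nhlrc3 (0.99), Yipf2 (0.99) and Sema4c (0.98), and Hcn4 to Ccdc9 (0.99), Cdh23 (0.98) and Sdsl (0.96). No channel gene was among the 3 closest of another. Within the families, Cacna1h and Cacna1i went together (r = 0.93), Cacna1g and Cacna1h did not (r = 0.26), and Cacna1g was nearer to Hcn3 (0.82), Hcn4 (0.80) and Hcn2 (0.72). These coefficients are descriptions over 8 libraries that differ in condition and composition, taken as the highest of many, and carry no P value.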

How the data were processed

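Whole-number read counts per RefSeq transcript, deposited by the authors without normalization, were used for 8 TRAP-Seq libraries (0 columns were left without a sample). Per the labels, the build was mm10 and DESeq2 was among the tools. The authors' methods describe Salmon and tximport, but the tool that made the deposited counts is not given in the sources used here. Each gene was represented by the transcript with the highest total. All 18939 genes were tested with edgeR 4.0.16 in R 4.3.3 (TMM factors, quasi-likelihood test, condition as the only term) with Benjamini-Hochberg adjustment over all genes. CPM was computed from these counts, and log2 CPM with a prior count of 2. Lengths and GC content came from GENCODE M21 transcripts, matched for 99.21% of genes. P values measure the spread between libraries of pooled mice, no sequencing batch is given, and PCR copies are not marked. The tests were tried on simulated counts. An item that the plan of tests named is not reported here.

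The channel genes, lists and tests were chosen with earlier results of these data known. Besides the 6 channel genes, listed genes are named that were called, did not overlap between groups or had the lowest P values of their list (at most 3), with the 3 genes most like each channel gene. Nalcn, Unc79 and the markers Neurod6, Neurod2, Slc17a7, Bcl11b, Cux2, Ttr, Gbx2, Tcf7l2, Gad1, Gad2 and Six3 were named as examples after their values had been seen. Alternatives were limma-voom (limma 3.58.1), DESeq2 1.42.0, other scaling factors (upper quartile, RLE), stricter filters (10 counts in each library, or filterByExpr), robust shrinkage, sums over transcripts, sex or a marker score as a covariate, and the removal of each library. A GC offset (lowess, span 0.3), removing control replicate 2 with morphine replicate 8, and removing control replicate 5 from the interaction were added after the counts had been seen.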

Additional observations from a re-analysis of the deposited data

Results flagged for a closer look

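In 20 groups of 4 libraries (6 channel genes and 4 ratios, in control and in morphine libraries), a library was set apart where its gap to the nearest other library took up more of the range of its group than Dixon's 95% critical value. By chance about 1 in 20 groups would be picked out, and 2 were. Cacna1g reached 158 CPM in control replicate 2, where the other control libraries lay between 114 and 116 CPM, and the gap took up 0.945 of the range. The log2 ratio of Cacna1i to Cacna1g was -1.63 in control replicate 1, where the others were -1.16, -1.20 and -1.17, and the gap took up 0.917 of the range. In 0 of the 6 channel genes was the interaction of sex and morphine called.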

How the results depend on the processing

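Across 21 alternatives to the comparison of morphine with control, Cacna1h was higher with morphine in all 21 and was called in 1, DESeq2, the one setting with a channel gene called (1 of 6). Of the 6 genes, 4 had a log2 fold change above 0. This count was 1 with the choroid plexus score as a covariate, 3 with upper-quartile factors, with filterByExpr or without control replicate 1, control replicate 5 or morphine replicate 8, 5 without control replicate 2 and 4 otherwise. With that score Cacna1i fell to -0.19, Hcn2 to -0.12 and Hcn3 to -0.40. With the telencephalic score Hcn3 stood at -0.15 and Hcn4 at 0.075. Hcn3 was also below 0 with upper-quartile factors (-0.021) and filterByExpr (-0.015). With each library left out, Cacna1g ranged from -0.14 to 0.042, Cacna1h from 0.76 to 1.20, Cacna1i from 0.18 to 0.51, Hcn2 from 0.10 to 0.49, Hcn3 from -0.15 to 0.20 and Hcn4 from -0.20 to -0.0084. The cause of these turns was not tested.

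The number of genes called over the whole table, 37, was 498 with DESeq2, 110 with sex as a covariate, 23 with limma-voom, 22 with sums over transcripts, 15 with at least 10 counts in every library and 14 with filterByExpr. The choroid plexus score left 0 and the telencephalic score 1. Leaving out single libraries gave 0 (without morphine replicate 4 or 8) to 77 (without control replicate 6 or morphine replicate 3), and without control replicate 2 and morphine replicate 8 it was 0, with 2586 genes at an unadjusted P under 0.05. Between the sexes, 1 gene was called, 26 with DESeq2, 0 with filterByExpr and 0 (without morphine replicate 3) to 5 (without control replicate 5) with single libraries left out. Sex differences near 0 changed sign with the library left out, from -0.24 to 0.31 for Cacna1h, -0.12 to 0.26 for Cacna1i, -0.29 to 0.18 for Hcn2 and -0.26 to 0.11 for Hcn3. The interaction was called in 4 genes by DESeq2. The 4 ratios kept their direction with each library left out, from 0.88 to 1.23 for Cacna1h to Cacna1g and from -0.43 to -0.11 for Hcn3 to Hcn2. Sums over transcripts and the longest transcript say nothing of the stability of the HCN and Cacna1i values, since each of these genes had 1 transcript in the table. They say little of Cacna1h and Cacna1g, whose transcripts had equal or nearly equal counts.

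No paired analysis was possible because the replicate numbers of the labels (1, 2, 5 and 6 in control, 3, 4, 7 and 8 in morphine libraries) are not shared between the groups. Depth limits the precision of these genes little, the lowest count of a channel gene being 376.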
